A study of Mus musculus with 14 samples.

Results

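The complement genes described here are 10 rows of the deposited count table, chosen by name as components and receptors that macrophages are known to make. They are the C1q chains C1QA, C1QB and C1QC, the components C2, C3, CFB and CFP, and the receptors C3AR1, C5AR1 and VSIG4. They are 10 of the 24982 genes listed, and 9 of them passed the filter on low counts, as did 13136 genes in all. VSIG4 did not pass and was not tested.

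Complement is a set of plasma and tissue proteins that mark microbes and dying cells for uptake. C1q is built from 3 chains and starts the classical pathway, in which C2 supplies the protease of the enzyme that cleaves C3. In the alternative pathway, factor B (CFB) supplies the protease and properdin (CFP) stabilizes the enzyme. Released C3a and C5a act through the receptors C3AR1 and C5AR1, and VSIG4 binds fragments of C3 that remain on the target. Most plasma complement is made in the liver, while tissue macrophages are a main source of C1q.

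RNA came from colonic lamina propria macrophages, sorted as live CD45+Ly6G-CD103-CD64+CD11b+ cells that carried MHCII and lacked Ly6C. All mice were 5 weeks old and on the C57BL/6 background, and all carried Cdcs1, a locus of susceptibility to colitis. WT mice carried Cdcs1 alone, IL10RAKO mice were also Il10ra -/-, DKO mice were Il10ra -/- and Ccr2 -/-, and the CCR2KO mouse was Ccr2 -/- only. Both genes were lost in the germline, so every cell of the animal lacked them and not the macrophages alone. Of 14 libraries, the fit used 4 WT, 4 IL10RAKO and 4 DKO libraries, each named by a replicate number that pairs no mice. These 12 libraries held 13085287 to 21216468 reads assigned to genes. WT replicate 4, which the authors' normalized table leaves out, held 12153000 reads, and the single CCR2KO library held 17112375. Neither entered the fit.

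The libraries followed their labels at the targeted genes. IL10RA lay at 217 to 379.6 CPM in the WT libraries of the fit and at 3.41 to 11.2 CPM in the IL10RAKO and DKO libraries. CCR2 lay at 361 to 702 CPM in WT and IL10RAKO and at 3.92 to 6.68 CPM in DKO. The CCR2KO library held 182 CPM of IL10RA and 4.30 CPM of CCR2. CPM (counts per 1e+06) is the reads of a gene scaled to a common depth over the tested genes, with library sizes set by trimmed mean of M-values (TMM), and 3 reads in a library correspond to 0.124 to 0.211 CPM in the fit.

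A pair of WT libraries stood apart in markers of another cell type. The 6 epithelial markers, led by KRT8, summed to 1234 CPM in WT replicate 3 and to 3113 CPM in WT replicate 4, against 27.9, 165 and 96.9 CPM in WT replicates 1, 2 and 5. WT replicate 4 also had the fewest genes detected, 11670 against 13485 to 15450 in the libraries of the fit. The macrophage markers, led by H2-AB1, summed to 22709 to 43114 CPM in the 12 libraries, and none of the 8 was at 0 in all of them. B cell and plasma cell markers, led by CD79A, summed to 386 to 1833 CPM in the fit, with no member called in any comparison.

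Promoters are shown for 3 members: C3, which rose, C3AR1, which fell in DKO, and C1QB, which passed the test in neither direction. RefSeq promoter sequences were found for 7 of the 10 members, and those of C1QA, C2 and CFB were not among them. Each line gives the 250 bases before the RefSeq start (GRCm38.p6), read along the minus strand, 5′ to 3′, with matches to the motifs in capitals.

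C3: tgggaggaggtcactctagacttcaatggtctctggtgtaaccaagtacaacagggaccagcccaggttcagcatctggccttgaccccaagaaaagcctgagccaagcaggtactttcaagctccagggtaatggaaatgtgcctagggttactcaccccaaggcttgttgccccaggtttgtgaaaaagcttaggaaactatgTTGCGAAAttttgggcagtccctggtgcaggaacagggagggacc

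C3AR1: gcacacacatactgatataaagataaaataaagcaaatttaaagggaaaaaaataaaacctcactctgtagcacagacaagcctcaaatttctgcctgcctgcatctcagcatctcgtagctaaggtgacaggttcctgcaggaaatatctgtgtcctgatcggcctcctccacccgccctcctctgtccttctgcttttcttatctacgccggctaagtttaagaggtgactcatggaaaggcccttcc

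C1QB: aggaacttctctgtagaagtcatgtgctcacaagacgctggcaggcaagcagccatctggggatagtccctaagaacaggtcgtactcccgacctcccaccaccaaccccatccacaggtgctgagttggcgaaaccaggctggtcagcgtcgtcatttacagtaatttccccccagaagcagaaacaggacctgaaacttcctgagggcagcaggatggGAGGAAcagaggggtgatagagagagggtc

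The C3 window is chr17:57228137-57228386, the C3AR1 window is chr6:122856158-122856407 and the C1QB window is chr4:136886201-136886450. The letters searched, on both strands, were TTGCNNAA for C/EBP, GAGGAA for ETS and TTCNNNGAA for the STAT element GAS. For NF-kB they were GGGA and TTCC with any 2 bases between them, and for the interferon element ISRE they were GAAA and GAAA with any 2 bases between them. C3 held 1 C/EBP match, TTGCGAAA, which began 45 bases before the start. C1QB held 1 ETS match 30 bases before the start, and C3AR1 held none of the 5 motifs. Among the other matched members, C1QC held 1 ETS match and VSIG4 held ETS matches 155 and 53 bases before the start, while C5AR1 and CFP held none. A shorter ISRE pattern, GAAANNGAA, chosen after seeing the data, is held by 7.13% of promoters and matched C5AR1 once, 66 bases before the start, and no other matched member. Of 32851 promoters of this length, 9.56% held the C/EBP letters, 23.3% the ETS letters, 7.02% GAS, 2.98% ISRE and 1.21% NF-kB. These matches are descriptions of the letters and not of bound sites.

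CFB and C3 were higher in macrophages without IL10RA, with or without CCR2, while the C1q chains, CFP and C5AR1 did not pass the test in either genotype. C3AR1 was lower in DKO, and the lower mean in IL10RAKO did not pass. In IL10RAKO against WT, 2 of the 9 tested members were called by edgeR's quasi-likelihood test at a Benjamini-Hochberg adjusted p under 0.05, both higher. Of all tested genes, 15.8% were called in this comparison, 8.7% higher and 7.1% lower. In DKO against WT, 4 of 9 were called, 3 higher and 1 lower, against 18.5% of all tested genes, 9.23% higher and 9.22% lower. The median log2 fold change of the 9 members was -0.03 in IL10RAKO and -0.39 in DKO, beside -0.07 and -0.06 for all tested genes. Both comparisons use the same 4 WT libraries.

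**Figure D1:**
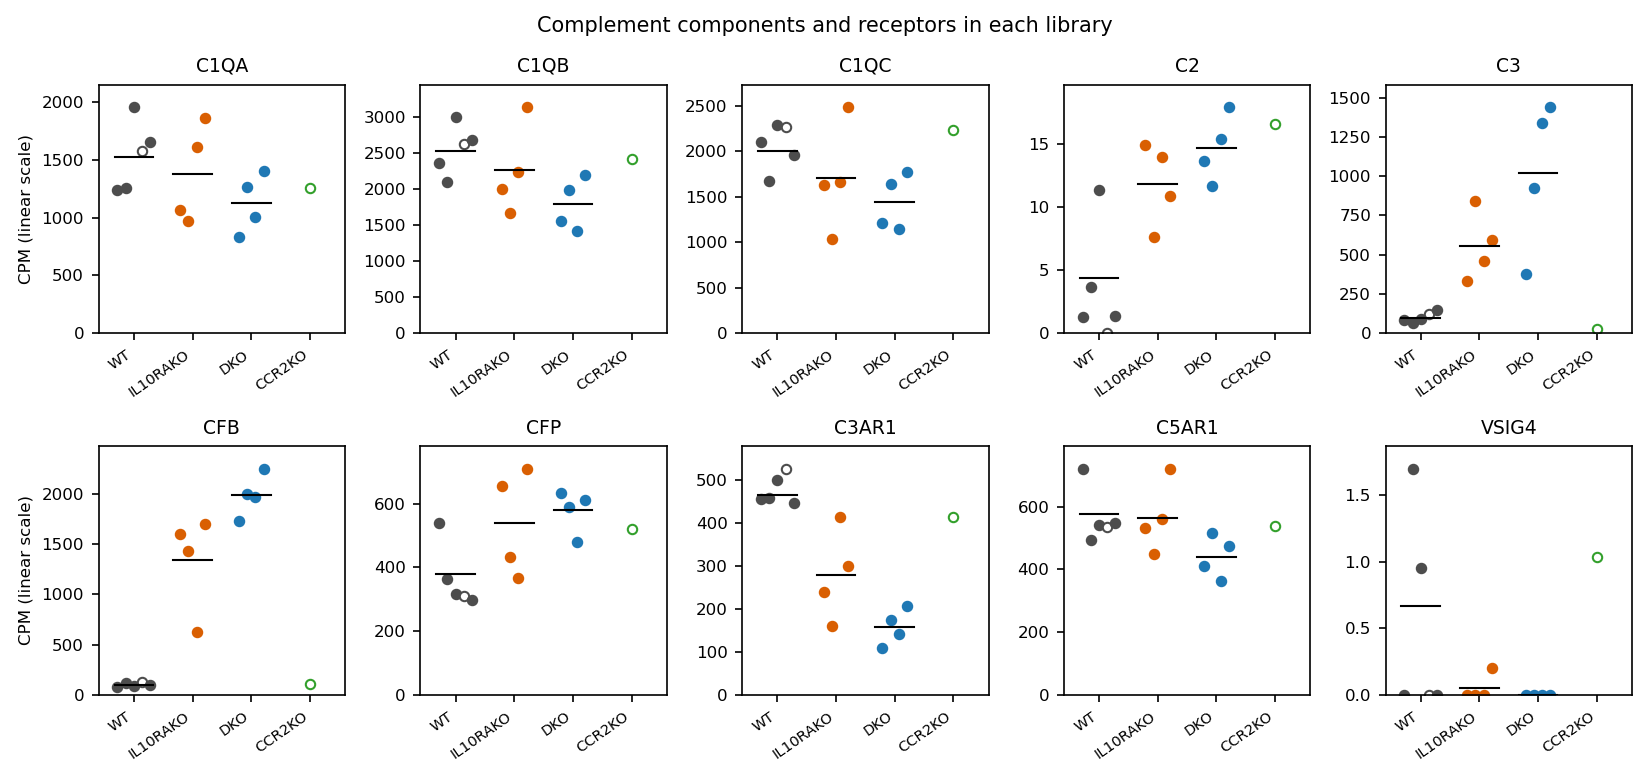
Level of each of the 10 complement genes in CPM on a linear axis that starts at 0, by genotype. Filled points are the libraries of the fit, open points are WT replicate 4 and the CCR2KO library, and lines are means of the filled points; CFB and C3 sit above every WT library in all 8 IL10RAKO and DKO libraries.

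CFB, the protease of the alternative pathway, had the largest fold changes among the members. The gene lies at chr17:34856374-34862518 (GRCm38). WT replicates 1, 2, 3 and 5 held 72.1, 119.6, 88.8 and 94.8 CPM. The IL10RAKO libraries held 1606, 1435, 626 and 1704 CPM, and the DKO libraries held 1729, 2003, 1977 and 2255 CPM. The 3 genotypes did not overlap, and IL10RAKO replicate 3 was the lowest library without IL10RA. The log2 fold change over WT was 3.84 ± 0.29 (SE, n = 4 and 4, edgeR adjusted p = 1.55e-06) in IL10RAKO, where CFB ranked 16 of 13136 genes by p. It was 4.41 ± 0.30 (SE, n = 4 and 4, edgeR adjusted p = 4.68e-07) in DKO, where it ranked 12. By mean CPM, CFB ranked 1691 among tested genes in WT and 54 in DKO. It overlaps the readthrough gene Gm20547, which has no row in the table, so reads shared with it cannot be told apart.

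C3, the protein on which all complement pathways converge, lies at chr17:57203970-57228136. The WT libraries held 82.6, 64.1, 93.1 and 148.8 CPM of C3. The IL10RAKO libraries held 330.8, 843, 461 and 594 CPM, and the DKO libraries held 380.0, 925, 1336 and 1440 CPM. All 8 libraries without IL10RA lay above all WT libraries, while IL10RAKO and DKO overlapped. Over WT, C3 had a log2 fold change of 2.52 ± 0.40 (SE, edgeR adjusted p = 0.000633) in IL10RAKO and 3.39 ± 0.42 (SE, edgeR adjusted p = 6.42e-05) in DKO. With bulk RNA, a change in the share of cells that make a transcript and a change in RNA per cell cannot be told apart.

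C2, the protease of the classical pathway, was the least abundant tested member and the least certain call. It lies at chr17:34862604-34898265 and overlaps Gm20547 and Zbtb12. WT held 1.29, 3.63, 11.3 and 1.33 CPM, from 27, 62, 274 and 20 reads. IL10RAKO held 14.9, 7.60, 14.0 and 10.9 CPM, and DKO held 13.6, 11.6, 15.4 and 17.9 CPM. WT replicate 3, the WT library of the fit with the most epithelial markers, lay above 2 IL10RAKO libraries and just under all DKO libraries. In the fit it was higher by a log2 fold change of 1.72 ± 0.55 (SE, edgeR adjusted p = 0.0427) in DKO, and 1.41 ± 0.55 (SE, edgeR adjusted p = 0.100) in IL10RAKO. The DKO call was kept in 10 of 22 other settings. Without WT replicate 3 the log2 fold change of C2 was 2.81 in DKO (edgeR adjusted p = 0.000373) and 2.51 in IL10RAKO (edgeR adjusted p = 0.000949). With WT replicate 4, which held 0 reads of C2, the adjusted p in DKO was 0.125.

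CFP encodes properdin and lies at chrX:20925454-20931555. It averaged 379.8 ± 110.7 CPM (SD, n = 4) in WT, 541 ± 168 CPM in IL10RAKO and 579.8 ± 68.1 CPM in DKO. WT replicate 1, at 541 CPM, lay inside the range of both other genotypes. Neither the log2 fold change of 0.51 ± 0.23 in IL10RAKO (SE, edgeR adjusted p = 0.165) nor that of 0.61 ± 0.23 in DKO (SE, edgeR adjusted p = 0.0871) passed. Without WT replicate 1, CFP was called higher in both, at 0.74 in IL10RAKO (edgeR adjusted p = 0.0343) and 0.84 in DKO (edgeR adjusted p = 0.0171), and with DESeq2 it was called in DKO (adjusted p = 0.0479).

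The C1q chains had the highest CPM of the members in WT. In IL10RAKO the means of C1QA and CFB, at 1376 and 1343 CPM, differed by less than their SD. In DKO the mean of CFB, at 1991 ± 215 CPM (SD), lay above that of each chain. It differed from the mean of C1QB, at 1792 ± 368 CPM, by less than their SD, and the libraries of these genes overlapped. The C1q genes lie side by side on chromosome 4, C1QB at chr4:136880129-136886187, C1QC at chr4:136889804-136893065 and C1QA at chr4:136895917-136898803. C1QB held 2370.1, 2094, 3001 and 2677 CPM in WT, 1999, 1663, 2245 and 3140.2 CPM in IL10RAKO, and 1556, 1995, 1414 and 2201 CPM in DKO. The ranges overlapped, and the highest library was an IL10RAKO one. The log2 fold change of C1QB was -0.16 (95% interval -0.61 to 0.28) in IL10RAKO and -0.50 (95% interval -0.95 to -0.05) in DKO, and the latter did not pass after adjustment (edgeR adjusted p = 0.117).

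C1QA averaged 1525 ± 344 CPM (SD, n = 4) in WT, 1376 ± 429 CPM in IL10RAKO and 1125 ± 258 CPM in DKO. C1QC averaged 2007 ± 256 CPM in WT, 1706 ± 598 CPM in IL10RAKO and 1446 ± 312 CPM in DKO. The edgeR adjusted p was 0.730 and 0.553 in IL10RAKO for C1QA and C1QC, and 0.234 and 0.187 in DKO. Within a library, C1QB gave 1.54 to 1.92 reads per C1QA read in WT, with 1.40 to 1.88 for IL10RAKO and 1.41 to 1.88 for DKO. C1QC gave 1.17 to 1.698 reads per C1QA read in WT, with 1.04 to 1.54 for IL10RAKO and 1.14 to 1.465 for DKO. Together the 3 chains took 0.592% to 0.832% of all reads in WT, while in IL10RAKO they took 0.335% to 0.637% and in DKO 0.3501% to 0.513%. These shares are not scaled by TMM. Without TMM scaling, the median of all tested genes fell to -0.38 in IL10RAKO and -0.32 in DKO, and all 3 chains and C5AR1 were then called lower in DKO.

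Among C3AR1, C5AR1 and VSIG4, C3AR1 was the one whose WT libraries lay apart from both other genotypes. It binds C3a and lies at chr6:122847138-122856161. WT held 455, 456, 500.3 and 445 CPM. IL10RAKO held 239, 159.5, 412 and 298 CPM, and DKO held 108.7, 173, 141 and 206 CPM. Every WT library lay above every library without IL10RA, and IL10RAKO replicate 2 lay within the DKO range. In DKO, C3AR1 fell by 1.56 ± 0.26 on the log2 scale (SE, edgeR adjusted p = 0.000726). In IL10RAKO it was -0.74 ± 0.25 (SE, edgeR adjusted p = 0.0614), which did not pass in the fit of 12 libraries and passed in 7 of 22 other settings.

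C5AR1, the receptor for C5a at chr7:16246743-16259540, averaged 576 ± 100.2 CPM (SD, n = 4) in WT, 565 ± 113 CPM in IL10RAKO and 441 ± 68 CPM in DKO. Its log2 fold change was -0.03 (95% interval -0.41 to 0.36) in IL10RAKO and -0.39 (95% interval -0.77 to 0.00) in DKO, with edgeR adjusted p of 0.940 and 0.163. VSIG4, a C3 fragment receptor of resident macrophages at chrX:96247203-96293438, was near absent. It had 29 reads in WT replicate 2, 23 in WT replicate 3, 3 in IL10RAKO replicate 4 and 21 in the CCR2KO library, and 0 in all others. It was left out of the fit by the filter on low counts. Without that filter, an alternative for VSIG4 chosen after seeing the data, it was not called in IL10RAKO (edgeR adjusted p = 0.267) or DKO (edgeR adjusted p = 0.0776) against WT, nor between them.

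**Figure D2:**
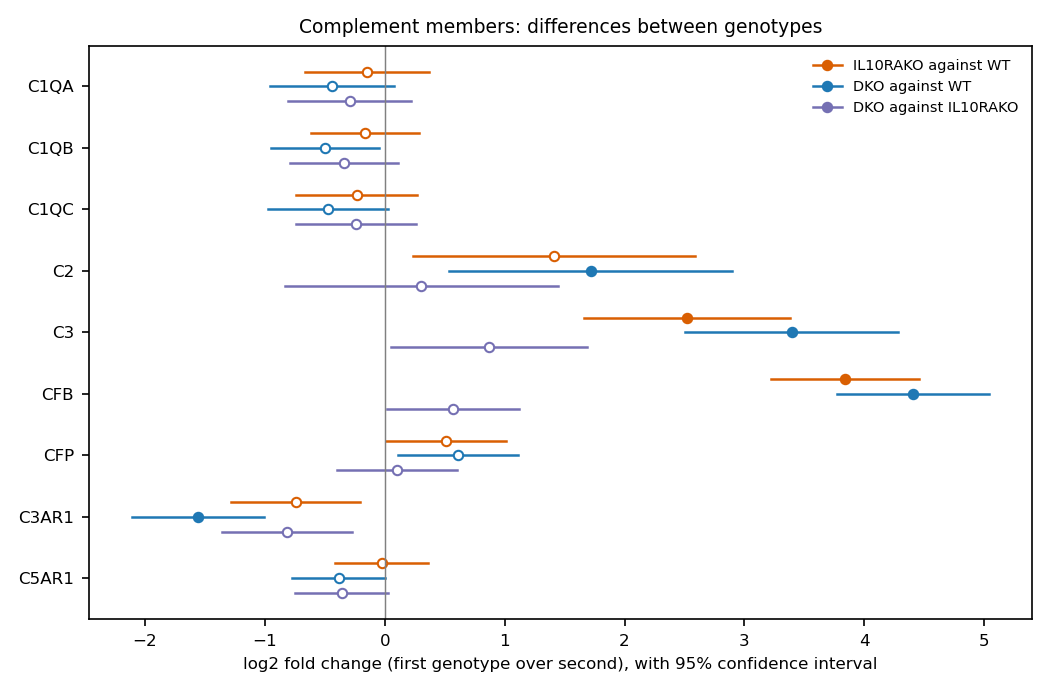
Log2 fold change of the 9 tested members with its 95% interval in each of 3 comparisons; filled points passed the adjusted p threshold of 0.05. CFB and C3 are filled on the right in both comparisons with WT, C2 and C3AR1 are filled in DKO against WT, and no point is filled in DKO against IL10RAKO.

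DKO against IL10RAKO asks what loss of Ccr2 adds in mice without Il10ra. None of the 9 members was called by edgeR, DESeq2 or limma. In edgeR, 3 of them had an unadjusted p under 0.05, beside 388 of all 13136 tested genes. Over all tested genes 0.0457% were called, 0.0152% higher and 0.0305% lower, so few calls were made anywhere. The log2 difference was 0.87 ± 0.38 for C3, 0.57 ± 0.26 for CFB and -0.82 ± 0.25 for C3AR1 (SE). The edgeR adjusted p was 1.00 for each, so these differences did not pass. The median log2 difference of the 9 members was -0.24, beside -0.01 for all tested genes.

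The order of the members changed between genotypes when levels were divided by exon length. In WT, C1QB stood at 2330 CPM per kilobase, followed by C1QC at 1669 and C1QA at 1466, which differed by less than their SD. CFP at 232 and C5AR1 at 224 CPM per kilobase also lay within their SD of each other, above C3AR1 at 107.8. CFB at 33.2 and C3 at 18.9 CPM per kilobase came next, then C2 at 1.502. In DKO, CFB stood at 705 CPM per kilobase, above CFP at 354, C3 at 199, C5AR1 at 172 and C3AR1 at 36.5, and below the 3 C1q chains at 1082 to 1647.

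Other complement genes were described from a list of 51, of which 48 were in the table and 24 were tested. In IL10RAKO against WT 10 were called, 3 higher and 7 lower, and in DKO against WT 12 were called, 5 higher and 7 lower. Both counts of higher genes include FCNB, which had 0 reads in every WT library and passed the filter only through the other genotypes. Of all tested genes, 15.8% were called in the first comparison (8.7% higher, 7.1% lower) and 18.5% in the second (9.23% higher, 9.22% lower). None was called in DKO against IL10RAKO by edgeR, with 3 at an unadjusted p under 0.05, beside 388 of all 13136 tested genes. The median log2 fold change of the 24 was -0.50 in IL10RAKO, -0.26 in DKO and 0.27 between them. MBL1, MBL2 and C8B had 0 reads in all libraries.

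Of 15 regulators listed, 5 were tested, and 3 of these were called lower in each genotype against WT and none higher, where 7.1% of all tested genes were lower in IL10RAKO and 9.22% in DKO. SERPING1, the C1 inhibitor, fell from 35.8 CPM on average to 7.12 and 7.20 CPM, and CLU, which blocks the terminal complex, from 16.8 to 2.68 and 2.77 CPM.

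Reads of C3 per read of C3AR1 ranged from 0.141 to 0.335 across WT libraries, with 1.12 to 5.29 for IL10RAKO and 3.495 to 9.45 for DKO. WT did not overlap the other genotypes, while IL10RAKO and DKO overlapped. The ratio gives the same reads as the fits above and was not tested.

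**Figure D3:**
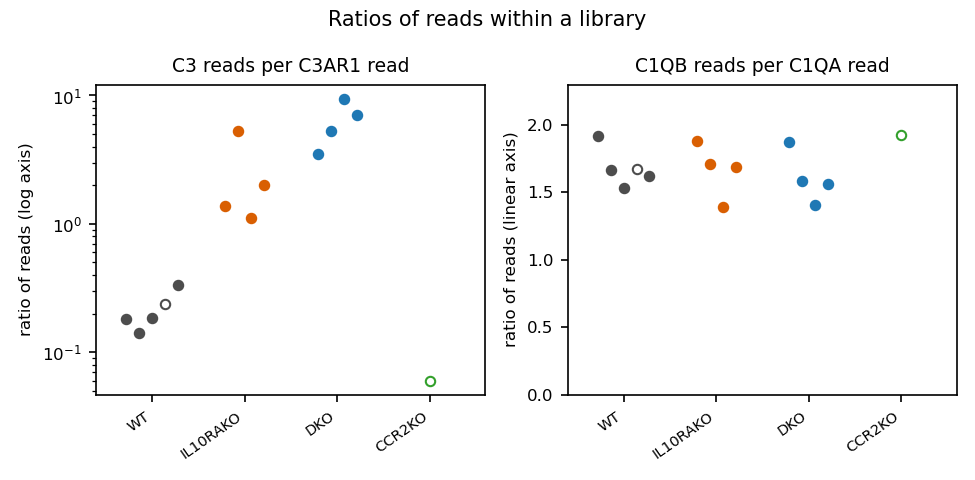
Ratio of reads of 2 genes within each library by genotype, on a log axis for C3 per C3AR1 and on a linear axis from 0 for C1QB per C1QA. Filled points are libraries of the fit and open points are WT replicate 4 and the CCR2KO library; the first ratio is at most 0.335 in the filled WT points and at least 1.12 in IL10RAKO and DKO, while the second stays between 1.40 and 1.92 in the filled points.

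Among initiators, FCNA, which encodes ficolin A, averaged 42.7 ± 2.36 CPM (SD, n = 4) across the WT libraries of the fit. It fell to 1.21 ± 0.85 CPM in IL10RAKO and 0.828 ± 0.145 CPM in DKO. WT replicate 4, outside the fit, held 13.3 CPM of FCNA. FCNB, which encodes ficolin B, had 0 reads in every WT library, 0 to 14 reads in IL10RAKO and 9 to 27 reads in DKO. It passed the filter on low counts only through libraries without IL10RA, so its calls are not used as support. Against 3 reads per WT library, the mean of FCNB was at least 5.58-fold higher in DKO. It was at least 2.29-fold higher in IL10RAKO, where 2 of 4 libraries held under 3 reads. These bounds allow for counting error in WT only, and not for the spread between mice. The IL10RAKO bound was 1.24-fold without IL10RAKO replicate 2, a check added after seeing the data. The IL10RAKO call of FCNB held in 9 of 20 other settings, a count that is likewise not used as support. C1RA, a protease of the C1 complex, averaged 13.2 CPM in WT, 39.3 CPM in IL10RAKO and 48.9 CPM in DKO. COLEC12, a collectin, averaged 8.22, 1.53 and 2.203 CPM. With WT replicate 4, COLEC12 was not called in either genotype (edgeR adjusted p = 0.200 and 0.322), and C1RA was not called in IL10RAKO (edgeR adjusted p = 0.059).

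Among receptors, CD93, once described as a C1q receptor, averaged 133 ± 28 CPM (SD, n = 4) across WT libraries and fell to 42.6 ± 16.4 CPM in IL10RAKO and 20.1 ± 4.5 CPM in DKO. DKO lay below all IL10RAKO libraries, with a log2 difference of -1.08 ± 0.26 (SE) that did not pass after adjustment (edgeR adjusted p = 0.543). C5AR2, the second C5a receptor, averaged 19.3, 8.98 and 6.88 CPM, and its call in IL10RAKO was kept in 12 of 22 other settings. ITGB2, the shared beta chain of complement receptors 3 and 4, rose from 492 ± 17 CPM to 1047 ± 197 and 1309 ± 120.1 CPM. ITGAX, the alpha chain of receptor 4, and CALR, a binding partner of C1q, were called in DKO only among comparisons with WT, at log2 fold changes of 0.86 ± 0.23 and 0.53 ± 0.15 (SE). Neither was called without TMM scaling. The difference between IL10RAKO and DKO did not pass for either gene.

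**Figure D4:**
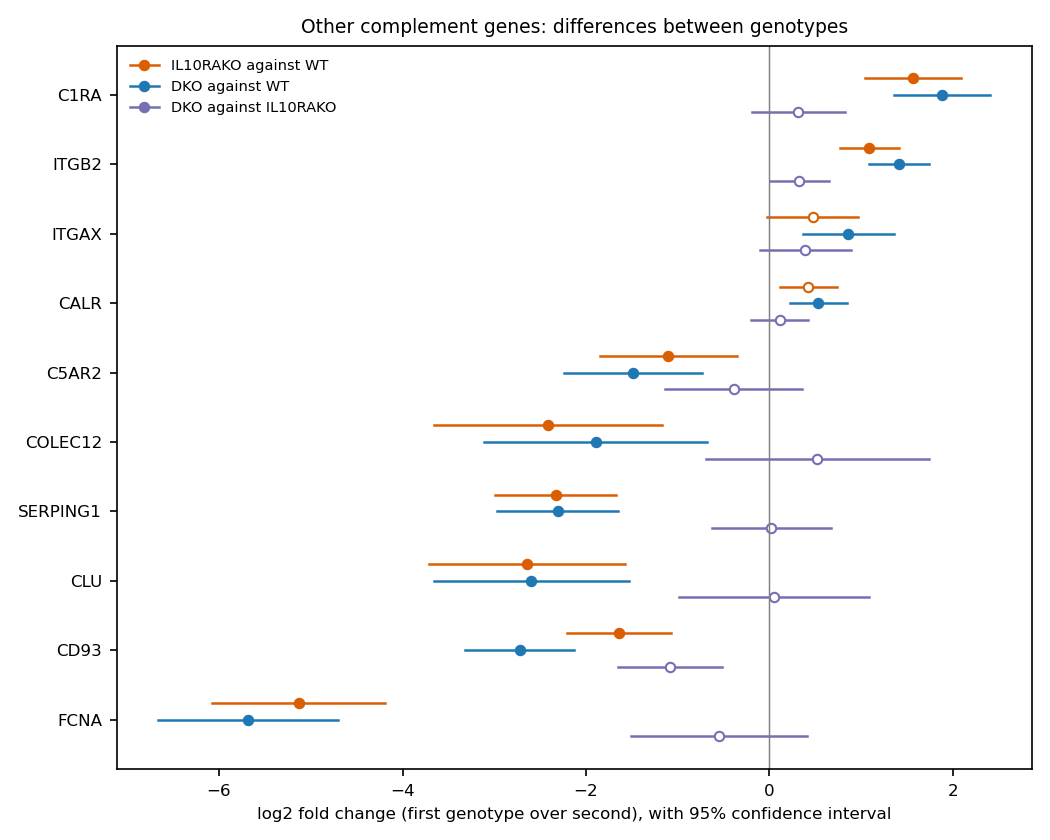
Log2 fold change with its 95% interval for 10 of the 12 other complement genes called in at least 1 comparison, without FCNB, whose WT libraries hold 0 reads; filled points passed the adjusted p threshold of 0.05. FCNA, CD93, CLU, SERPING1, COLEC12 and C5AR2 lie left of 0 in both comparisons with WT, and C1RA and ITGB2 lie right of 0.

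Markers of other cell types moved with the genotypes. All 6 fibroblast markers, led by COL3A1, were called lower in IL10RAKO and in DKO. Among them, PDGFRA held 1 to 15 reads in the IL10RAKO and DKO libraries and passed the filter only through WT. The 6 summed to 294, 577, 301.02 and 553 CPM in WT. Their sums were 53.7, 22.0, 21.6 and 15.0 CPM in IL10RAKO and 17.2, 16.1, 31.6 and 67.0 CPM in DKO. None of the 6 was at 0 in all 12 libraries. They moved in the direction of SERPING1, CLU and COLEC12, and their part in those results was not tested.

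Of 6 markers of resident macrophages, led by MRC1, 5 were called lower in each genotype. The exception, TIMD4, was not called and had higher means, 28.6 CPM in IL10RAKO and 23.5 CPM in DKO against 15.7 CPM in WT. The 6 summed to 643 to 991 CPM in WT, 72.6 to 278 CPM in IL10RAKO and 69.9 to 110.9 CPM in DKO. Against WT the sum fell in the direction of FCNA, CD93 and C3AR1. Of 4 monocyte markers, led by PLAC8, 2 were called higher in each genotype. They summed to 120.0 to 182 CPM in WT, 367 to 1045 CPM in IL10RAKO and 430.1 to 698 CPM in DKO. Against WT this was the direction of CFB and C3. From IL10RAKO to DKO the mean sum went from 700 to 547 CPM, while the means of CFB and C3 rose. The part of either list in these results was not tested. Of the 8 macrophage markers, FCGR1 and H2-AB1 were called higher in IL10RAKO. In DKO, MERTK was called higher, while ADGRE1 fell from 740.1 to 358 CPM and CX3CR1 from 389 to 169 CPM, in the direction of C3AR1, and their part in that result was not tested. Of the remaining lists, 1 of 5 endothelial markers was called lower in IL10RAKO and 2 of 5 in DKO, and no epithelial marker was called. Neutrophil markers gave 2 called higher and 1 lower of 4 tested in IL10RAKO, and 2 higher in DKO. The higher ones include CXCR2, with 0 to 4 reads in the WT libraries of the fit. CXCR2 passed the filter on low counts only through libraries without IL10RA, so its calls are not used as support. Dendritic cell markers gave 2 of 5 higher in IL10RAKO and 1 of 5 in DKO, T and NK cell markers gave 0 of 6 and 1 of 6 higher, and the 1 mast cell marker tested was not called. No marker of any list was called in DKO against IL10RAKO.

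**Figure D5:**
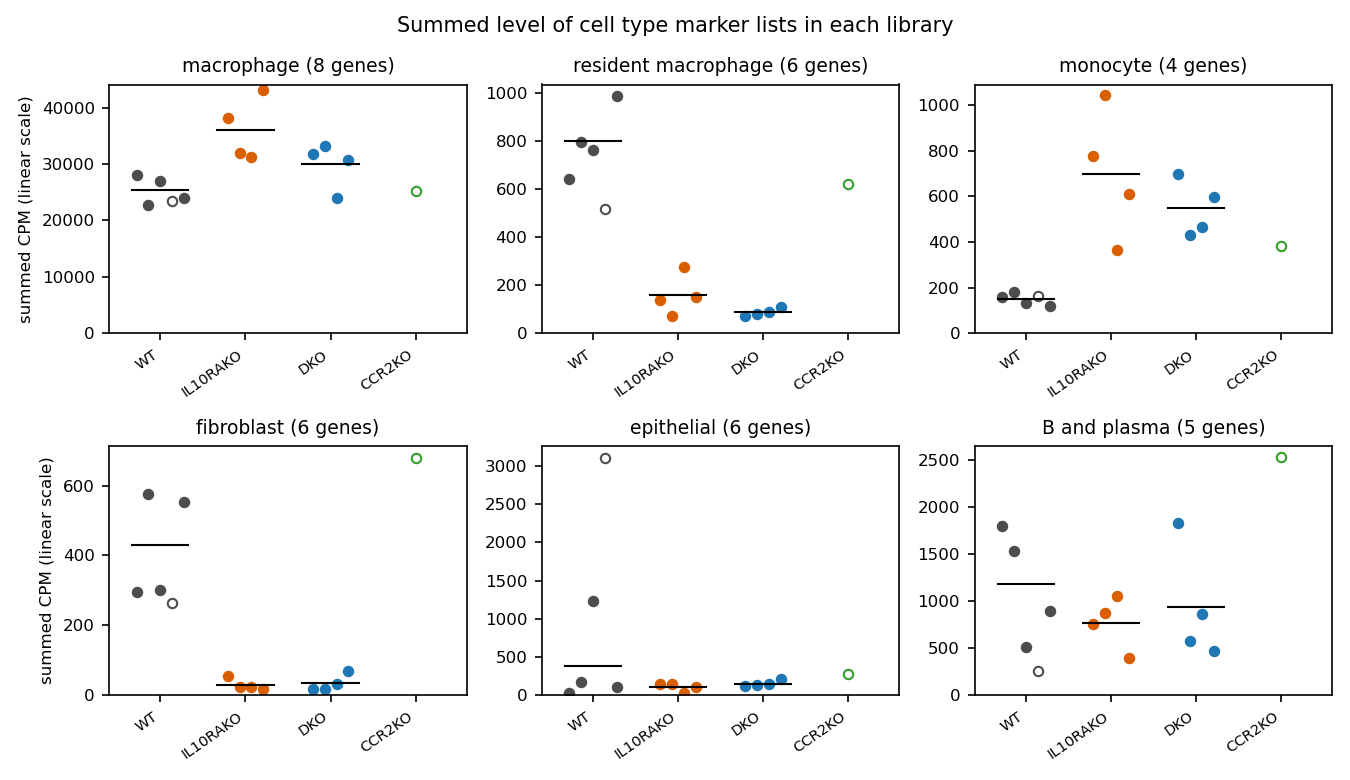
Summed CPM of 6 lists of cell type markers in each library by genotype, on linear axes that start at 0. Filled points are libraries of the fit, open points are WT replicate 4 and the CCR2KO library, and lines are means of the filled points; the fibroblast sum is 294 to 577 CPM in the filled WT points and at most 67.0 CPM in IL10RAKO and DKO.

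The libraries outside the fit were read as values only. WT replicate 4 held 124 CPM of C3, 131 CPM of CFB and 526 CPM of C3AR1, near the other WT libraries. Its 13.3 CPM of FCNA, 9.23 CPM of SERPING1, 0.22 CPM of C1RA and 0 CPM of COLEC12 lay below every WT library of the fit. The SERPING1 value lay inside the IL10RAKO and DKO ranges, while CLU, at 25.5 CPM, lay inside the WT range. With WT replicate 4 in the fit, C3, CFB, FCNA and SERPING1 stayed called in both comparisons with WT, and C3AR1 was called in both. The CCR2KO library held 24.8 CPM of C3, below every WT library, 106.7 CPM of CFB and 413 CPM of C3AR1. It held 2424 CPM of C1QB and 16.6 CPM of C2. Its monocyte markers summed to 382 CPM. Its fibroblast markers summed to 681 CPM, the highest of all 14 libraries. It has no replicate and no difference from it was tested.

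Genes whose log2 CPM followed a member most closely over the 12 libraries were named by Pearson r among 13103 tested genes, as a description. For the mean of the C1q chains they were PLOD1 (r = 0.959), VSIR, TMEM86A, ITM2B and SLC29A1. For C3 they were CSF2RB (r = 0.978), CRLF2, CLCN7, PPT2 and WSB2. For CFB they were SMPDL3B (r = 0.995), LY6I, M6PR and CD1D1. For VSIG4 they were PGM2L1 (r = 0.903), ARHGEF39, E2F5, GCNT1 and SMIM15, and this likeness rests on WT replicates 2 and 3. All points share their libraries and fall into 3 genotypes, so genes that differ between genotypes follow each other by that alone.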

How the data were processed

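Colonic macrophages were sorted by the authors, and cDNA made with SmartSeq v4 was sequenced as paired-end reads. Per the submitters' processing notes and the study's methods, bcl2fastq 2.20, STAR 2.5.1b (mm10) and edgeR 3.34.0 were used. The authors deposited raw counts of reads per gene for 24982 genes in 14 libraries. They also deposited edgeR pseudocounts, a score adjusted to a common library size, for 13338 genes in 12 libraries, used here only with limma. Strand, annotation and multimapping are not given in the sources used here. Per-sample columns left out numbered 0.

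Genotypes came from the sample labels, which give no batch, sex or litter, and p-values measure the spread between 4 mice per genotype. In R 4.3.3, edgeR 4.0.16 kept genes with filterByExpr (minimum count 10), scaled by TMM and fitted 3 genotypes together with glmQLFit and glmQLFTest. p-values were adjusted by Benjamini-Hochberg over 13136 genes. limma 3.58.1 and DESeq2 1.42.0 were alternatives. Depth was 13085287 to 21216468 reads per library in the fit. Intervals and the floor of 3 reads cover counting error only where they come from reads. No library pair of a genotype agreed within sampling noise (smallest chi-square per degree of freedom 31.75). In simulated counts for IL10RAKO against WT, the fit recovered 0% of genes changed 1.5-fold, 23% at 2-fold and 72% at 4-fold, over 12933, 12927 and 12903 genes. Only 200 genes drawn at random were changed, while 2076 were called in the data. The shares therefore describe that setting and not the power for the members.

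The members and lists were chosen with earlier results of these data known. Named are all members, the targeted genes, each other complement gene called in at least 1 comparison, the 5 genes most like each of 4 profiles, and marker lists; 1 complement gene and 1 of the like genes are not reported here. Positions are from GENCODE (GRCm38), lengths from protein-coding transcripts, and promoters from RefSeq. The promoter motifs were chosen after the expression results were seen.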

Additional observations from a re-analysis of the deposited data

Results flagged for a closer look

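VSIG4 in IL10RAKO replicate 4 stood at 0.198 CPM, from 3 reads, while the other 3 IL10RAKO libraries were at 0. A count of 0 allows up to 3 reads, so this library cannot be told apart from the others by counting alone. It was 1 of 29 groups of 4 libraries with a sample far from the others, where chance gives about 5% of groups. C2 in the CCR2KO library, which entered no comparison, stood at 16.6 CPM, above the 1.29 to 11.3 CPM of the WT libraries in the fit, and it has no replicate.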

How the results depend on the processing

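Counts of calls, the fold changes of the 9 tested members and those of the called other complement genes were recomputed under 22 other settings, of which FCNA had a value in 21 and FCNB in 20. Marker lists, shares of reads and likeness were not recomputed. C3 and CFB against WT were called in all 22 in both genotypes, with log2 fold changes of 2.19 to 2.80 and 3.50 to 4.08 in IL10RAKO and 3.14 to 3.68 and 4.15 to 4.55 in DKO. C3AR1 in DKO was called in all 22 (-1.82 to -1.41). No called value changed sign. Signs of the uncalled C5AR1 in IL10RAKO, and of C1QC and CFP between DKO and IL10RAKO, were not kept in every setting. Members called in IL10RAKO against WT were 4 with DESeq2 and 4 with limma, against 2. Over all genes, 2631 were called with DESeq2 and 2044 with limma in that comparison, against 2076. Members called in DKO against WT were 7 with library totals without TMM, against 4, where 2888 genes were called in all, against 2424. Genes called in DKO against IL10RAKO were 24 with DESeq2, against 6. The causes were not tested. Library totals without TMM gave 651 genes higher and 2084 lower in IL10RAKO against WT, beside 1143 and 933, and 748 higher and 2140 lower in DKO against WT, beside 1213 and 1211. Leaving out 1 library gave 1485 to 2554 genes called in IL10RAKO against WT, 1691 to 2995 in DKO against WT and 4 to 10 in DKO against IL10RAKO, with the 10 reached without IL10RAKO replicate 2. Members called ranged from 2 to 3, 3 to 4 and 0 to 0. C2 in DKO lost its call in 12 settings (adjusted p up to 0.125), among them without WT replicate 1, 2 or 5, any 1 DKO library, or IL10RAKO replicate 1 or 4. COLEC12 in DKO was called in 15 of 22, and ITGAX and CALR in DKO in 18 of 22 each. No paired analysis was possible because the replicate numbers only name the libraries and the genotypes share no mice. VSIG4 and FCNB rest on at most 29 and 27 reads in a library.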
